A study of Mus musculus with 4 samples.

Results

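The FOS and JUN family was examined in splenic CD4+ dendritic cells taken 1 h after immunization with sheep red blood cells (SRBC) or with the saline vehicle (PBS). Members were chosen by gene name, with no threshold on a measured value: Fos, Fosb, Fosl1, Fosl2, Jun, Junb and Jund. Each of the 7 matched 1 locus among the 30043 loci of the table, and 6 passed the filter on low values. Equal numbers of cells per group were sorted on CD11c, the class II molecule I-Ab and CD4, without CD8, at a labelled purity above 99%. All donors were C57BL/6 mice with the genotype label GPR183 Heterozygote, so the controls were also heterozygous for Gpr183, which encodes an oxysterol receptor. The PBS group (100 uL) and the SRBC group (1000000000 cells) each had 2 libraries. The sources used here do not give ages, and nothing says that a group's libraries came from different animals, so p-values measure a spread that may be technical.

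FOS and JUN proteins carry a basic region that contacts DNA and a leucine zipper through which they pair, and the pairs form the transcription factor AP-1. JUN proteins can pair with each other, whereas FOS proteins need a JUN partner, so the members present set which AP-1 dimers a cell can build. Fos, Fosb, Jun and Junb are immediate early genes, switched on within minutes of a signal without new protein synthesis, and their transcripts decay fast. Fosl2, which encodes FRA-2, and Fosl1, which encodes FRA-1, usually follow later in a response, and Jund is often expressed in resting cells. In dendritic cells AP-1 acts downstream of pattern recognition receptors and MAP kinases and shares target genes with NF-kB and IRF factors.

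The start regions of the 4 genes that the results turn on are printed first, because Fos, Fosb and Jun shared a pattern over the libraries that Fosl2 did not have. Sequences are RefSeq's for GRCm38.p6, read 5′ to 3′ from 250 bases before the annotated start to 50 after it. Capitals mark TGACG, the core of cyclic AMP response elements, the AP-1 element TGANTCA and the related TGACNTCA, searched on both strands, where the last overlaps the first whenever its N is G.
Fos: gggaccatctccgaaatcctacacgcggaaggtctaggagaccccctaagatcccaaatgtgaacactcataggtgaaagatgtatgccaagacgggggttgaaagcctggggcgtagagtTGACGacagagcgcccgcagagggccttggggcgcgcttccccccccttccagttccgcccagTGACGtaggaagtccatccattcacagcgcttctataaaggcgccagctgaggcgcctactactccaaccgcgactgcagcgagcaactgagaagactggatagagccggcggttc
Fosb: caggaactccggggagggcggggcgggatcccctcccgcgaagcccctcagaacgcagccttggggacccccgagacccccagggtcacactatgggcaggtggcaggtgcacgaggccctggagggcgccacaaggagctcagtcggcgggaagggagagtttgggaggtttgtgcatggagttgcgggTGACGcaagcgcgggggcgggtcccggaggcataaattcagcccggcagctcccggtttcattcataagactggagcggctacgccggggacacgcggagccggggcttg
Jun: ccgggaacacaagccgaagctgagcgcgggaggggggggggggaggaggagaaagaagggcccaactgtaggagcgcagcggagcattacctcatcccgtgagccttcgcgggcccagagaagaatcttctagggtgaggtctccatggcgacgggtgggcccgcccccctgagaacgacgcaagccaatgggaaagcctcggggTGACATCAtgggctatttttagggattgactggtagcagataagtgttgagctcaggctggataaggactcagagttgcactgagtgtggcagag
Fosl2: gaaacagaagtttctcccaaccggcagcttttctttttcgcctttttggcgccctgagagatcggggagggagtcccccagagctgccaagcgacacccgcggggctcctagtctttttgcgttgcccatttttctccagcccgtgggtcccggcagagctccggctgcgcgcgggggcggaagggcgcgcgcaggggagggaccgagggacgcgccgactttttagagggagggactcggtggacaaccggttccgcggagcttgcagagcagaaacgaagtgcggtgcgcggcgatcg
The windows lie at chr12:85473640-85473939, plus strand, for Fos, at chr7:19309996-19310295, minus strand, for Fosb, at chr4:95052173-95052472, minus strand, for Jun and at chr5:32136222-32136521, plus strand, for Fosl2. TGACG was found in the Fos window at positions -129 and -66 from the start in the Fosb window at -60 and in the Junb window at -106, and 20.8% of the 32851 mouse start windows of this length hold it. In the Jun window the match was TGACATCA at -45, a form of TGACNTCA, which 8.83% of windows hold. Neither the Fosl2 window nor the Jund window held any of the 3 motifs, so their absence was not particular to Fosl2. Between the PBS libraries Jund differed 2.5-fold and Fosl2 1.35-fold, with library 1 the larger for both. RefSeq's start lies 671 bases from the GENCODE start for Fosl2 and 1210 bases for Jund, so other windows would be read for both from that annotation. TGANTCA, present in 7.81% of windows, was found in none of the 6 members with a window (Fosl1 had no entry). A CArG box, the serum response element, which 1.63% of windows hold, was also found in none of them. Bases more than 250 before the start were not searched, so a site further upstream would be missed. A TATAAA sequence, in 13.6% of windows, was found for Fos at -33 and for Junb at 1, and a MEF2 site, in 3.19%, for Jun at -33. For Junb the RefSeq start lies 30 bases upstream of the GENCODE start, so the position of its match depends on the annotation. These matches describe letters only.

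**Figure D1:**
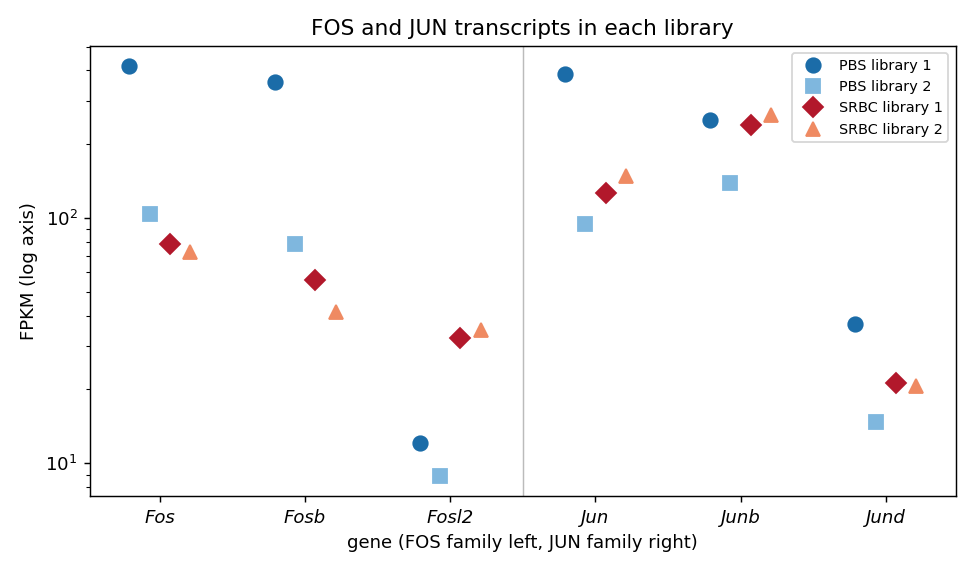
FPKM of each FOS and JUN member that passed the filter (x axis; Fosl1 is left out) on a log axis, with 1 point per library. Fos, Fosb and Jun stand at 360 to 415 in PBS library 1 and below 150 in the other 3 libraries, while both SRBC libraries of Fosl2, at 32.3 and 35.0, lie above both PBS libraries.

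Levels are FPKM, fragments scaled by transcript length and by sequencing depth, as the authors deposited them. Summed FPKM ran from 377167 to 558016 per library. The files give no read totals. An estimate of depth from the lowest FPKM values rested on few loci and was too rough to use, so no counting interval is given. The sort genes were present, with Itgax (CD11c) at 180 to 253, H2-Ab1 at 3905 to 8908 and Cd4 at 75.8 to 96.4, and Cd8a stood at 1.20 to 2.63. Xist was at 0.210 and 0.327 in the PBS libraries and at 339 and 306 in the SRBC libraries, while the Y-linked Ddx3y was at 17.2 and 20.4 and then at 0.0307 and 0.00819. The effect of SRBC and that of sex therefore cannot be told apart in any comparison below. In sorted cells taken as bulk, fewer cells of a type and less RNA per cell cannot be told apart either.

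Fos, the founding member of the FOS family (chromosome 12, 85473890 to 85477273, plus strand, GRCm38), had an FPKM of 415 in PBS library 1, 104 in PBS library 2, 78.2 in SRBC library 1 and 73.0 in SRBC library 2. Paired values below keep this order. PBS library 1 was high and the other 3 libraries were close to each other, and the groups did not overlap. On the log2(FPKM + 1) scale the difference of SRBC from PBS, called log2 fold change below, was -1.45 ± 0.33 (SE, n = 2 per group, limma adjusted p = 0.0019), with means of 260 ± 220 and 75.6 ± 3.68 (SD). Fosb, whose product forms full-length and truncated proteins by splicing (chromosome 7, 19302696 to 19310051, minus strand), had FPKM of 360 and 78.1 in the PBS group and of 55.7 and 41.6 in the SRBC group. PBS library 1 was again high, and again the groups did not overlap. Its log2 fold change was -1.78 ± 0.36 (limma adjusted p = 4.0e-04). Both genes fell by this test, and both calls rested on PBS library 1. Without that library the log2 fold changes were -0.46 (adjusted p = 0.30) for Fos and -0.69 (adjusted p = 0.074) for Fosb, and 3.44-fold and 4.51-fold differences between group means became 1.37-fold and 1.61-fold. Both calls were lost too with median-of-ratios, upper-quartile or quantile rescaling, without the low-value filter and under a robust variance model, but there the log2 fold changes did not shrink, at -1.99 to -1.45 for Fos and -2.26 to -1.78 for Fosb. Both calls were made in 9 of 15 alternatives.

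Fosl2 (chromosome 5, 32135801 to 32157842, plus strand) had FPKM of 12.1 and 8.90 with PBS, against 32.3 and 35.0 with SRBC. Both SRBC libraries lay above both PBS libraries, and the libraries of each group were close. The gene rose 3.21-fold, from 10.5 ± 2.23 to 33.6 ± 1.88, with a log2 fold change of 1.61 ± 0.24 (limma adjusted p = 4.8e-06). It was called in all 15 alternatives run, with log2 fold changes from 1.23 to 1.81 and adjusted p up to 0.012. Fosl1 (chromosome 19, 5447547 to 5455946, plus strand) was listed at an FPKM of 0.0988 and 0 with PBS, then 0.185 and 0.273 with SRBC. It did not reach the minimum FPKM of 1 in any library and was not tested. Its gene overlaps Ccdc85b on the opposite strand.

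Jun, which encodes c-JUN (chromosome 4, 95049034 to 95052222, minus strand), had FPKM of 386 and 94.5 with PBS, then 126 and 148 with SRBC. Both SRBC libraries lay between the PBS libraries. The log2 fold change was -0.48 ± 0.34 (limma adjusted p = 0.35), and without PBS library 1 it was 0.53 (adjusted p = 0.24), so its direction turned on that library. Junb, which encodes a JUN protein that often restrains c-JUN (chromosome 8, 84974484 to 84978718, minus strand), had FPKM of 251 and 139 with PBS, then 239 and 262 with SRBC. PBS library 2 was the low library, and the groups overlapped. The log2 fold change was 0.42 ± 0.25 (limma adjusted p = 0.26), with 0.84 (adjusted p = 0.061) without PBS library 1, and its sign turned to -0.18 after quantile normalization and to -0.019 with TPM. Jund (chromosome 8, 70698949 to 70700616, plus strand) had FPKM of 36.9 and 14.8 with PBS, then 21.2 and 20.6 with SRBC. Its SRBC libraries also lay between the PBS libraries, with a log2 fold change of -0.16 ± 0.28 (limma adjusted p = 0.74) that was 0.47 without PBS library 1. Jun overlaps the antisense gene Junos, Jund overlaps the antisense gene Gm11175 and Junb overlaps the end of Prdx2 on the opposite strand. No source used here says whether strand was kept, so reads in these overlaps cannot be told apart. Prdx2 itself measured 19.6 to 34.8.

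Of the 6 tested members, 1 was called higher and 2 lower, while of all 11020 tested loci 13.5% were called higher and 6.2% lower. Both SRBC libraries lay above both PBS libraries for 1 member and below them for 2, against 34.3% and 24.7% of all loci. Without PBS library 1 the counts of members were 1 higher and 0 lower, with 10.9% and 9.01% of all loci, and without PBS library 2 they were 1 and 4, with 14.9% and 5.16%. The lower count over members thus ran from 0 to 4 with the choice of PBS library. In the authors' deposited table, q-values were 0.0010 for Fos and for Fosb, 0.0019 for Fosl2 and 0.013 for Jun. That table gave 0.58 for Junb, 0.66 for Jund and 1 for Fosl1.

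**Figure D2:**
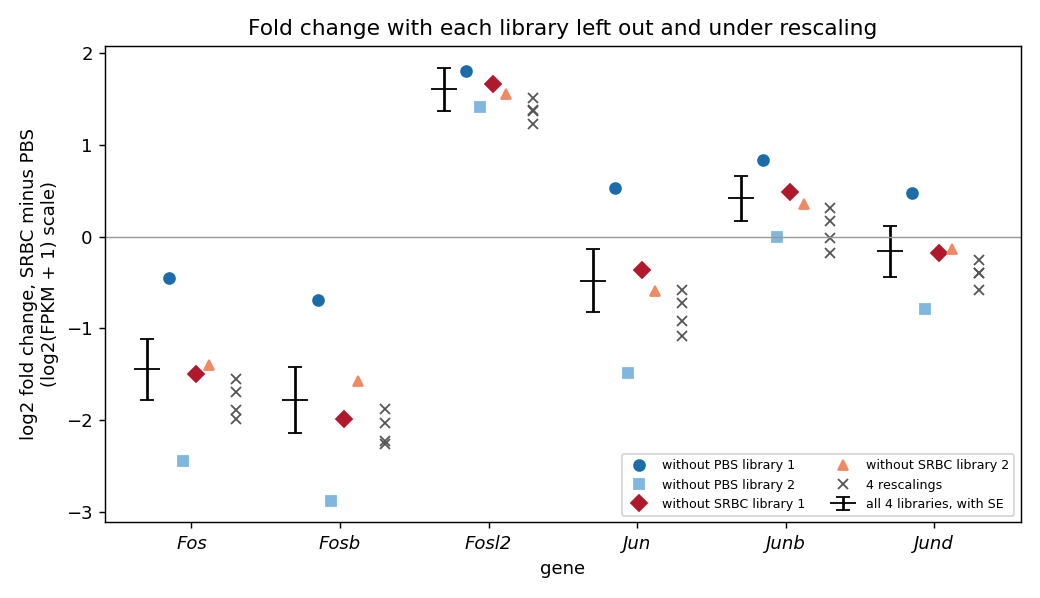
Log2 fold change of SRBC over PBS, from log2(FPKM + 1) values (y axis), for each tested member (x axis). The black bar is the value with all 4 libraries and its SE, coloured points leave out 1 library each, and crosses are the 4 rescalings of the libraries. Fosl2 stays between 1.23 and 1.81, while Jun and Jund are above 0 without PBS library 1 and below 0 in the other settings shown.

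PBS library 1 stood apart in this family. In all 6 tested members its value exceeded that of PBS library 2, as in 27% of all tested loci. The difference was at least 2-fold for 4 members (Fos 4.0-fold, Fosb 4.61-fold, Jun 4.08-fold and Jund 2.5-fold), as it was for 3.25% of all loci. Junb was 1.80-fold and Fosl2 1.35-fold higher. The SRBC libraries differed by less: SRBC library 2 was at 0.746 to 1.17 times SRBC library 1 over the 6 members, and 0 members were 2-fold apart, while 4.32% of all loci were.

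The order of the members, which FPKM allows because it is scaled by length, changed between libraries. PBS library 1 ran Fos, Jun, Fosb, Junb, Jund, Fosl2 and Fosl1 from highest to lowest. In PBS library 2, Junb came first, followed by Fos, Jun, Fosb, Jund, Fosl2 and Fosl1. Both SRBC libraries had the order Junb (250.4 ± 16.5), Jun (137 ± 15.2), Fos (75.6 ± 3.68), Fosb (48.6 ± 9.99), Fosl2 (33.6 ± 1.88), Jund (20.9 ± 0.433) and Fosl1, and no neighbours in it overlapped. Within each PBS library the order Fos, Jun, Fosb held and the place of Junb changed, although the ranges of these 4 genes over the PBS libraries overlapped. Fosl2 lay below Jund in both PBS libraries and above it in both SRBC libraries. Junb was abundant throughout, among the 295 highest of 11020 tested loci in each of the 4 libraries.

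Shares within a library do not depend on how libraries are scaled to each other. Fosl2 made up 1.53% and 4.66% of the summed FOS family FPKM with PBS, then 19.4% and 23.3% with SRBC. The groups did not overlap, and the difference of 18.3 percentage points lay between 16.3 and 20.3 when a library was left out. Fosb took 45.7% and 40.9% with PBS, then 33.5% and 27.8% with SRBC, and Fos took 52.7% and 54.4%, then 47.0% and 48.7%. The ratio of Fos to Fosl2 was 34.5 and 11.7 with PBS, then 2.42 and 2.09 with SRBC. In the JUN family, Junb made up 37.3% and 56.0% with PBS, then 61.8% and 60.8% with SRBC. Jun went the other way, with 57.2% and 38.0%, then 32.7% and 34.4%, and Jund held 4.79% to 5.95% in every library. PBS library 2 lay closer to the SRBC libraries than to PBS library 1 in the Jun and Junb shares, and closer to PBS library 1 in the FOS shares. Summed FOS FPKM was 788 and 191 with PBS, then 166 and 149.8 with SRBC, and summed JUN FPKM was 674 and 248.6, then 386 and 431. The ratio of summed FOS to summed JUN was 1.17 and 0.768 with PBS, then 0.430 and 0.348 with SRBC, so that it was higher in both PBS libraries. With 2 libraries per group the smallest exact permutation p is 0.33, so these shares and ratios were not tested.

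**Figure D3:**
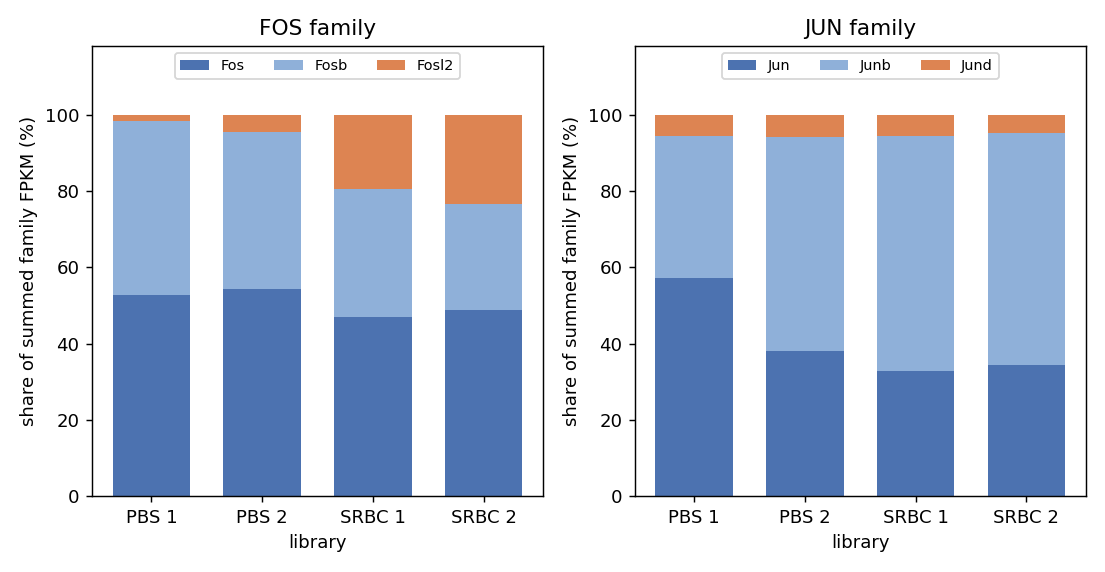
Share of each member in the summed FPKM of its family (y axis, percent) in each library (x axis), for the FOS family (left) and the JUN family (right); Fosl1, at most 0.182%, is left out. The Fosl2 block widens from 1.53% and 4.66% after PBS to 19.4% and 23.3% after SRBC, and the JUN bars of PBS library 1 differ from the other 3.

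The other immediate early genes were read to see whether the pattern of PBS library 1 extended beyond the family. Of 30 tested loci in that list, 27 had a higher value in PBS library 1 than in the other PBS library, 15 of them by at least 2-fold, against 27% and 3.25% of all loci. Egr1, a zinc finger factor of the early response, had FPKM of 409 and 58.4 with PBS, then 76.0 and 76.1 with SRBC. Klf4, a zinc finger factor of myeloid cells, measured 128 and 32.6, then 34.3 and 30.5. Egr1 and Klf4 were named after their values were seen. The median log2 fold change of these 30 loci between SRBC and PBS was 0.70, beside 0.070 for all tested loci. Of them 16 were higher and 5 lower, beside 13.5% and 6.2% of all tested loci. These counts were 18 and 2 without PBS library 1, 9 and 8 without PBS library 2 and 6 and 3 after quantile normalization. Gadd45b, a stress-response gene, rose 12.7-fold to 397 ± 25.3. Dusp5, which encodes a phosphatase of ERK, rose 6.79-fold to 176 ± 0.704, and the locus of Dusp2 and Astl rose 7.11-fold. Nr4a3, an orphan nuclear receptor gene, was listed at 35.3 and 17.8 with PBS and at 0 in both SRBC libraries, where a value of 0 may reflect an estimate that failed.

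**Figure D4:**
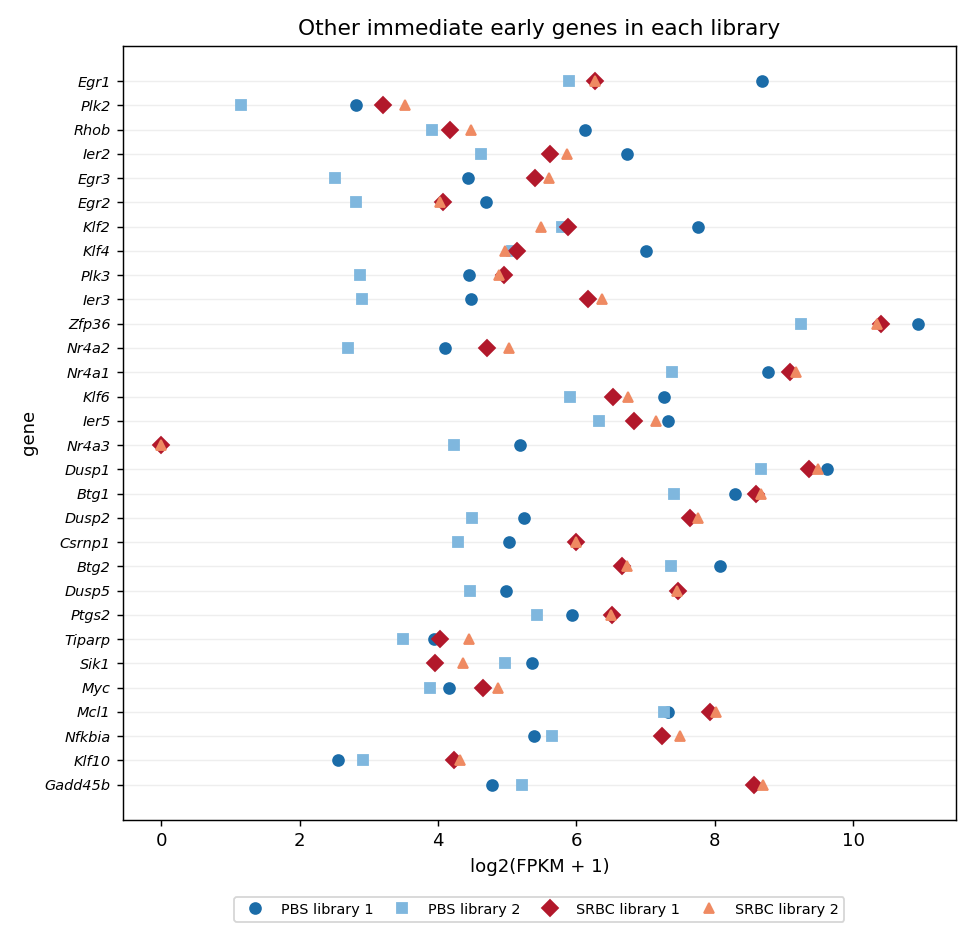
log2(FPKM + 1) (x axis) of the 30 other immediate early genes (y axis), 1 point per library, ordered from the lowest ratio of PBS library 1 to PBS library 2 at the bottom to the highest at the top. In 27 of 30 genes PBS library 1 lies to the right of PBS library 2, and genes such as Gadd45b and Dusp5 have both SRBC libraries to the right of both.

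Genes known to respond to tissue dissociation and cell handling, in a list without the family's members, followed the same order within PBS. The list shares 9 of its 29 tested loci with the 30 other immediate early genes (31.0% and 30% of each). In 27 of the 29 the value of PBS library 1 was above that of PBS library 2, in 15 by at least 2-fold, and its summed FPKM was 5966 and 2748 with PBS, then 6075 and 6918 with SRBC. After SRBC 17 of 29 were higher and 2 lower (median log2 fold change 0.96), beside 13.5% and 6.2% of all loci. After quantile normalization the counts were 8 and 1, beside 922 higher and 930 lower of all 11020 tested loci. Socs3, a feedback inhibitor of cytokine signalling, had FPKM of 4.29 and 1.74 with PBS, then 78.5 and 88.5 with SRBC, and the metallothionein gene Mt1 measured 15.6 and 8.07, then 80.7 and 75.7. Mt2 was listed at 0.939 and 0, then at 20.6 and 31.3. Ier3 measured 21.2 and 6.46, then 71.0 and 82.0. The part of handling in the Fos, Fosb and Jun values of PBS library 1 was not tested.

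Marker genes of cells other than CD4+ dendritic cells also differed between the PBS libraries. Neutrophil markers summed to 72.7 and 12.5 with PBS, then 50.6 and 107 with SRBC, with 10 of 11 loci higher in PBS library 1, and the granule genes Elane, Mpo, Mmp8 and Camp listed at 0 in PBS library 2 (Camp in SRBC library 1 too). S100a9, the most abundant of them in PBS library 1, measured 31.4 and 2.5, then 20.4 and 38.9. Plasmacytoid dendritic cell markers summed to 213 and 90.7, then to 111 and 181, with 9 of 10 higher in PBS library 1. Erythroid markers summed to 66.2 and 13.1, then to 115 and 201, with 8 of 10 higher in PBS library 1. These 3 sums were also higher in SRBC library 2 than in SRBC library 1. B cell markers summed to 92.2 and 75.1, then 74.9 and 96.7, or 48.9 and 33.3, then 39.7 and 66.9 without their most abundant gene, Cd22. T cell markers summed to 38.7 and 33.8, then 52.5 and 79.7, or 20.3 and 11.8, then 15.8 and 27.2 without Tcf7. NK cell markers summed to 103 and 119.6, then 63.2 and 91.9, or 19.9 and 6.05, then 11.5 and 33.6 without Klrd1. PBS library 1 exceeded PBS library 2 in 10 of 12 B cell, 12 of 14 T cell and 9 of 10 NK cell loci. Without these genes, left out after their values were seen, each of the sums was larger in PBS library 1 than in the other PBS library and larger in SRBC library 2 than in the other SRBC library. Macrophage and monocyte markers summed to 191 and 173, then 213 and 264, and platelet markers to 12.7 and 13.5, then 21 and 22.6. Markers of CD8-type dendritic cells summed to 142 and 126, then 89.0 and 119. Those of the CD4 type summed to 5373 and 4903, then 8961 and 10311, of which H2-Ab1 was the largest part. Whether cells of other types added to the FOS and JUN values was not tested.

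FOS and JUN proteins also pair or compete with other bZIP proteins. In the list of these partners, 7 of 19 tested loci were higher after SRBC and 2 lower, beside 13.5% and 6.2% of all loci, with a median log2 fold change of 0.49. By quantile normalization the counts were 5 and 1 with a median of 0.27, and by TPM 5 and 3 with a median of 0.077. Jdp2, a repressor that binds AP-1 elements with JUN proteins, had FPKM of 4.6 and 2.87 with PBS, then 89.1 and 105 with SRBC, a rise of 26.0-fold (log2 fold change 4.39 ± 0.24, limma adjusted p = 9.8e-15). Batf, which pairs with JUN proteins and cooperates with IRF4 or IRF8, rose 12.1-fold, from 18.9 and 10.8 to 152 and 208 (3.54 ± 0.24, adjusted p = 1.4e-12). After SRBC it stood above Jun in both libraries, and after PBS below Jun in both. Nfe2l2, which encodes NRF2, rose 10.2-fold, and Bach1, a heme-sensing repressor, rose 4.19-fold. Batf3, required for CD8-type dendritic cells, fell from 60.4 ± 9.89 to 37.1 ± 3.74 (-0.68 ± 0.22, adjusted p = 0.028). The locus of Atf3, a stress-induced member that also carries the name Fam71a, had FPKM of 219 and 27.8 with PBS, then 32.2 and 24.9 with SRBC. Its call as lower (-1.44 ± 0.44, adjusted p = 0.018) rested on PBS library 1, without which the log2 fold change was 0.028. Maff, a small MAF protein without an activation domain, measured 11.7 and 8.66, then 33.8 and 44.2, and rose (1.84 ± 0.24, adjusted p = 6.1e-07). Atf3 and Maff were named after their values were seen.

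**Figure D5:**
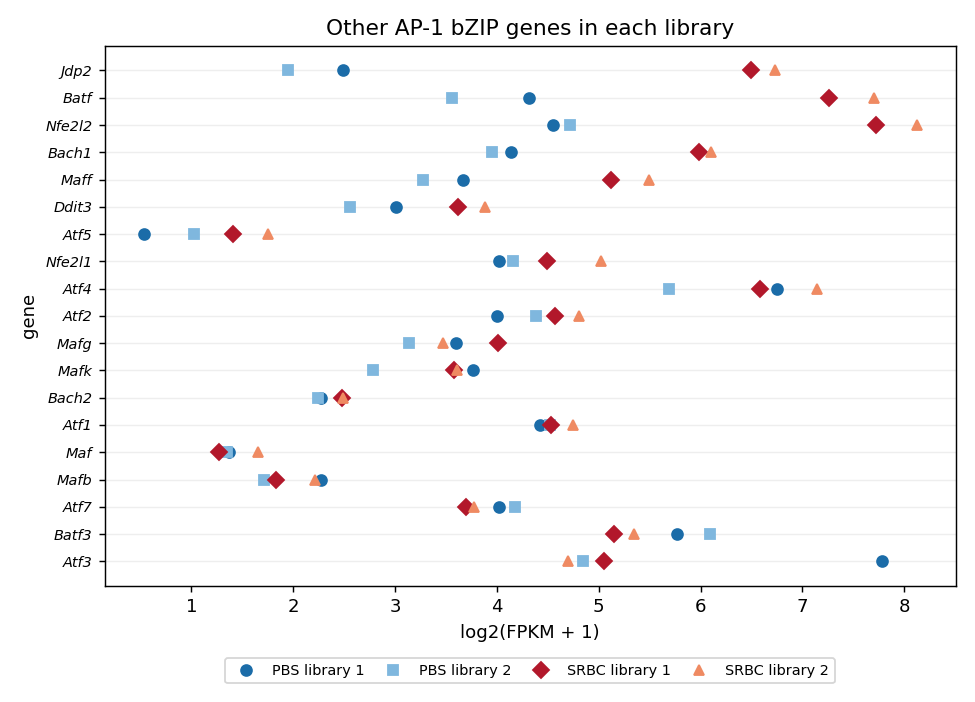
log2(FPKM + 1) (x axis) of the 19 tested genes for other AP-1 bZIP proteins (y axis), 1 point per library, ordered by log2 fold change from the lowest at the bottom. For Jdp2, Batf, Nfe2l2, Bach1 and Maff both SRBC libraries lie to the right of both PBS libraries, and for Atf3 the PBS 1 point, at an FPKM of 219, lies far to the right of the other 3.

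MAP kinases, which act on AP-1 proteins and on the factors that switch their genes on, were mixed. After quantile normalization 3 of 27 tested loci were higher and 7 lower, beside 922 and 930 of all 11020 loci. Without rescaling 5 were higher and 5 lower (median log2 fold change 0.11), beside 13.5% and 6.2% of all loci. Leaving out either SRBC library brought the lower count to 2, and the median was -0.032 without PBS library 1, -0.055 after quantile normalization and -0.30 by TPM. Map2k3, an activator of p38 kinases, rose from 9.94 ± 0.350 to 59.4 ± 6.55, and the p38 substrate kinase genes Mapkapk2 and Mapkapk3 rose 4.13-fold and 4.39-fold. Mapk14, which encodes p38 alpha itself, fell from 116 ± 2.02 to 45.4 ± 3.15. A list drawn up as factors that act on FOS and JUN promoters had 5 of 18 tested loci higher and 0 lower (median 0.25), beside 13.5% and 6.2% of all loci. It holds Tcf4, also used above as a plasmacytoid dendritic cell marker, which was not called (log2 fold change -0.090). Whether Tcf4 acts on these promoters was not tested. After quantile normalization the counts were 4 and 2. The median was 0.097 without PBS library 1, -0.018 after quantile normalization and -0.18 by TPM. Stat3 rose 3.82-fold, Crtc2, a coactivator of CREB, 3.18-fold, Mkl1, a coactivator of serum response factor, 3.02-fold and Crem, a CREB relative, 3.74-fold.

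Loci whose profile over the 4 libraries was most like that of a member were found by the root mean squared difference of centred log2(FPKM + 1) values, a description with no test over 4 points. Nearest to Fos were a locus of Irs2, an insulin receptor substrate gene (0.139), with 15.9, 2.62, 2.06 and 2.34 in the order PBS 1, PBS 2, SRBC 1 and SRBC 2, and Klf2, a zinc finger factor of quiescent lymphocytes (0.210), with 214.6, 54.4, 58.0 and 43.9. Nearest to Fosb were Fos (0.213) and the same Irs2 locus (0.311). For Jun they were Gm129 (0.122) and the small GTPase gene Rhob (0.133), which measured 68.9 and 14.1, then 17.0 and 21.2. Nearest to Fosl2 were the transcription factor gene Ets2 (0.030), at 3.32 and 2.14, then 9.68 and 11, and a locus of Fnip2 (0.043). That locus stood at 0.761 and 0.240, then 3.40 and 3.58, and adding 1 to FPKM narrows differences at values this low. Junb was nearest to Notch1 (0.034) and Id3 (0.039), which stood at 0.610 to 2.33, far below Junb. Jund was nearest to the tubulin gene Tubb2a (0.039) and to the locus of Irs2 with the highest mean (0.040).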

How the data were processed

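RNA of sorted dendritic cells was sequenced by the authors from 100 ng per library on an Illumina HiSeq with the Ovation kit, per the labels' protocols. The authors deposited FPKM per locus and library, per the file headers, and q-values that the notes deposited with the table credit to cuffdiff. The submitters' processing notes list Cufflinks 2.1.1, TopHat2 2.0.8b, CASAVA and the mm10 build. No source used here gives the annotation, read totals or the scaling between libraries, on which FPKM depends.

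Tests covered the 11020 of 23657 named loci whose FPKM reached 1 in 2 or more of the 4 libraries. Limma 3.58.1 in R 4.3.3 (mean-variance trend) was fitted to log2(FPKM + 1), a scale that understates changes of low genes, comparing 2 SRBC with 2 PBS libraries, with two-sided p-values adjusted by Benjamini-Hochberg across these loci and called at 0.05. Most of the spread was shared across loci (2 residual and 28.7 prior degrees of freedom). A symbol with several loci was represented by the one with the highest mean. On simulated data for SRBC against PBS with 11020 loci, 100% of 50 loci changed by 2 and 44% of 50 raised by 1 on the log2 scale were recovered, with 4 false calls. The simulated noise was independent between loci and libraries. Its counts therefore do not cover a library that stands apart, as PBS library 1 did for the members. The members and gene lists were chosen with earlier results of these data known, so lists are described by counts and medians without a list test.

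Named genes were the 7 members, up to 4 members of each pathway list with the smallest p, the 2 loci most like each tested member, the genes of the sort and of sex, and the most abundant marker of other cells. Gene coordinates come from GENCODE M21 (GRCm38, also called mm10) by symbol, where 7 of 7 members matched, and start windows of 300 bases from RefSeq, where 6 matched. Alternatives were other pseudocounts, filters, rescalings and variance models, leaving out each library, and blocking on replicate number. Where leaving out a library leaves 1 in its group, that library is taken to have the spread of the other group.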

Additional observations from a re-analysis of the deposited data

How the results depend on the processing

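Of the members, Fosl2 kept its call in all 15 alternatives. With limma on FPKM as deposited, 2 members were called lower. The count was 0 without the low-value filter, with median-of-ratios, upper-quartile or quantile rescaling and under the robust variance model. In these 5 settings the Fos and Fosb log2 fold changes were as large or larger (-1.99 to -1.45 and -2.26 to -1.78). Leaving out a library moved the log2 fold change of Fos between -2.44 and -0.46 and that of Fosb between -2.88 and -0.69. The count called lower was 2 in the other alternatives that kept all 4 libraries, and the count called higher was 1 throughout. Over all loci, 1488 higher and 683 lower became 751 and 184 without the filter, 922 higher after quantile normalization, 1417 lower after upper-quartile rescaling, and 629 and 1648 by TPM. Leaving out a library gave 746 to 1641 higher and 273 to 993 lower. The median log2 fold change of all loci moved by -0.40 by TPM, -0.21 by upper-quartile and -0.11 by quantile rescaling. The cause of these shifts was not tested.

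Leaving out a library turned the sign of the log2 fold change within these ranges: Jun -1.49 to 0.53, Jund -0.79 to 0.47, Gm129 -1.42 to 0.29, Rhob -1.81 to 0.40, Tubb2a -0.70 to 0.51, Irs2 -0.88 to 0.43, Atf3 -2.91 to 0.028 and Egr1 -2.41 to 0.38, each highest without PBS library 1. Junb ranged from -0.0064 to 0.84, S100a9 from -0.15 to 3.06, Cd8a from -0.074 to 0.65 and Id3 from -0.0095 to 0.93, each lowest without PBS library 2. Cd4 reached 0.14 without SRBC library 1, and Spib ranged from -0.087 to 0.17. Quantile normalization turned Junb (-0.18), Hnrnpd (-0.0035), Spib (-0.32) and Itgax (-0.33), and TPM turned Junb (-0.019), Spib (-0.39) and Itgax (-0.16). Spib also turned with median-of-ratios (-0.056) and upper-quartile (-0.20) rescaling.

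Deviations of libraries with the same replicate number correlated at 0.052 across loci. With 1 difference per group this cannot show whether the numbers pair the libraries, and the labels pair none. Under the replicate block 1684 loci were higher and 620 lower, and Fos (-1.45, limma adjusted p = 0.048) and Fosb (adjusted p = 0.022) stayed called.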

Other observations

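Textbook AP-1 target genes, in a list that also holds the member Fosl1, had a median log2 fold change of 0.88, beside 0.070 for all loci. After SRBC 11 of 19 tested loci were higher and 3 lower, beside 13.5% and 6.2% of all loci. The lower calls include the locus of Ccnd1 and Mir3962, listed at 242 and 247 with PBS, then 165 and 0 with SRBC. That 0 may also reflect an estimate that failed. The higher count was 6 to 8 under the 4 rescalings and 8 without PBS library 2. The heme oxygenase gene Hmox1 rose 5.23-fold, from 27.7 and 18.7 to 108 and 135, and Cxcl2, a neutrophil chemokine, rose 7.2-fold, from 2.76 and 1.09 to 11.5 and 16.2. Tnf rose 3.06-fold, from 36.6 and 18.5 to 76.3 and 92.1. Mmp12, a macrophage elastase gene, fell from 42.5 and 60.9 to 17.8 and 21.4 (log2 fold change -1.34 ± 0.23, limma adjusted p = 6.2e-05).

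Genes that control the turnover of FOS and JUN protein and mRNA had 1 of 19 tested loci higher and 1 lower (median 0.28). Of all loci 13.5% were higher and 6.2% lower. After quantile normalization the counts for the list were 0 and 3, beside 922 and 930 of all 11020 loci. Zfp36l2, which encodes a protein that binds AU-rich elements and speeds mRNA decay, had FPKM of 156 and 181 with PBS, then 34.8 and 31.8 with SRBC, a fall on the log2 scale (-2.30 ± 0.22, limma adjusted p = 1.4e-09). Trib1, which encodes an adaptor of the COP1 ubiquitin ligase, measured 15.5 and 1.72, then 23.2 and 27.5, and was called higher (1.97 ± 0.41, adjusted p = 6.6e-04), although PBS library 1 lay near the SRBC values. Neither Hnrnpd, an AU-rich element binding protein gene (82.0 and 113, then 135 and 162; adjusted p = 0.056), nor Men1, whose product menin binds JUND (6.37 and 5.87, then 9.71 and 11.2; adjusted p = 0.058), passed the test.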
